A study of Mus musculus with 16 samples.

Results

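This account compares how the transcripts of FOXO3 and FOXO4 cells went on changing between 2 h and 8 h of induction. The quantity is the line by time interaction, the change from 2 h to 8 h in the FOXO3 line minus the same change in the FOXO4 line. It takes in all 16 arrays of the series, and 17484 genes were tested. The cells were Ba/F3, a mouse pro-B line that grows on interleukin-3. They were made to express FOXO3(A3)-ER or FOXO4(A3)-ER stably, from HA-tagged pcDNA3 constructs under G418 selection. Such fusions join a FOXO factor that can no longer be phosphorylated by PKB to the hormone-binding part of the oestrogen receptor, which 4-hydroxytamoxifen (4-OHT) switches on. Each line was sampled after 2 h and after 8 h, which makes 4 groups of 4 arrays, and the series design calls the replicates independent. All groups received 4-OHT in medium with interleukin-3, and each array set 1 treated culture against the time 0 pool of its own line. The lines were clonal, so an effect of the FOXO factor and an effect of the clone cannot be told apart, and the amount of either fusion protein is not given in the labels. No array held cells without a fusion or cells kept without 4-OHT for 2 h or 8 h.

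FOXO factors are forkhead transcription factors that PI3K and PKB signalling keeps out of the nucleus. Once active, they are known to raise genes of cell cycle arrest, cell death, autophagy and stress resistance, and in Ba/F3 cells FOXO activity is known to oppose the growth and survival signal of interleukin-3. FOXO3 and FOXO4 have closely similar DNA-binding domains, which recognise the core sequence TGTTTAC. By its title, the series belongs to work on autophagy and on how cells handle glutamine. The comparison asks whether genes followed the same course in the 2 lines once the first hours had passed.

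Values are on the log2 scale, either the ratio of treated RNA to time 0 RNA or a difference of such ratios, and ± gives the SE of the limma fit with n = 4 arrays per group. The threshold for a call was 0.05 after Benjamini-Hochberg adjustment. The time 0 pool of a line enters its 2 h and its 8 h ratio alike and cancels in the interaction. By array, 96.5% to 97.2% of gene probes exceeded their local background, and 30.4% to 42.3% exceeded the signal that 95% of external control spots stayed under. A probe that did not reach the latter is called dim. Arrays of 1 group with opposite dyes correlated between -0.59 and 0.41 over genes as measured, and between 0.25 and 0.90 once the dye term of the fit was taken off. Of 16 B-lineage markers tested, 13 were dim on all 16 arrays, among them Pax5, Ebf1, Vpreb1 and Cd79a, while Cd79b and Ptprc were not dim on any. Of 19 mast cell, basophil and myeloid markers, 9 were dim on all 16, and the mast cell protease gene Cpa3 and the granzyme gene Gzmb were dim on 0. By limma, 0 of the 16 and 0 of the 19 were called for the interaction (1 and 0 at an unadjusted p under 0.05). The arrays measure bulk RNA, so fewer cells with a transcript and less of it per cell cannot be told apart.

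Between 2 h and 8 h the FOXO3 line moved further than the FOXO4 line, mostly along the same genes. The interaction was called for 578 of 17484 genes (3.31%), with 328 higher in FOXO3 (1.88%) and 250 lower (1.43%). Of the 578, 551 (95.3%) had the larger absolute change in the FOXO3 line, against 63.0% of all genes tested. Within the lines, 3804 genes were called from 2 h to 8 h in FOXO3 cells (21.8%; 11.8% up and 9.99% down) and 1869 in FOXO4 cells (10.7%; 6.74% up and 3.95% down). Across all genes the FOXO4 change followed the FOXO3 change with a total least squares slope of 0.589 and a Pearson r of 0.80, a description across genes that are not independent of each other. Over the 4209 genes called in the mean of both lines the slope was 0.592, and 98.3% had the same sign in both lines. Taken from same-numbered arrays, the 4 slopes over those genes were 0.649, 0.633, 0.523 and 0.584, all below 1.

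Most called genes moved the same way in both lines or passed the threshold in FOXO3 cells alone. Of the 578 genes, 289 passed the threshold the same way in both lines, 199 up and 90 down, and 283 of these moved further in FOXO3 cells. Another 267 passed it in FOXO3 cells and not in FOXO4 cells (125 up and 142 down), and 18 in FOXO4 cells and not in FOXO3 cells. Only Wtap and Slc39a10 passed it in opposite directions, and 2 genes passed it in neither line. At 2 h the lines had differed by the same test for 6 genes, and at 8 h they differed for 1862. Both of those counts hold the error of the time 0 pools, which the interaction does not. The median absolute size of a called interaction was 0.47, the median SE was 0.100, and 8 genes differed by at least 1 on the log2 scale, all of them higher in FOXO3.

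The count depends on how the arrays are normalized and on the dye term. It was 178 with each array centred on its median in place of loess normalization. With each array centred, after loess, on its external control spots it was 29. Those were 144 spots of 1 control type, the only 1 of 14 types with a detectable signal. Arrays brought to 1 scale gave 221. Without the dye term the count was 69, with 49 genes higher and 20 lower. Leaving out FOXO4 8 h replicate 3 took the genes lower in FOXO3 from 250 to 153. The slope stayed between 0.579 and 0.631 under the alternatives run for it. Of the 83 called genes that the naming rule picked, 67 kept their call whichever single array was left out. The other 16 lost it with at least 1 array left out: Casp6, Bcl2l11, Bbc3, Psmd4, Stat5b, Igf1r, Ndufs4, Uqcrh, Gsr, Gclc, Bid, Pgam1, Ctps, Myb, Rpp40 and Ifrd2. Under all 27 alternatives together, centring and dye included, 17 kept it: Hba-a1, Hba-a2, Ypel3, Erbb3, Ypel5, Ccpg1, S100a13, Vwa5a, Castor2, Tmem50a, Hells, Scd2, Nop58, Shmt1, Cdca7, Rrm2 and Uhrf1.

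**Figure D1:**
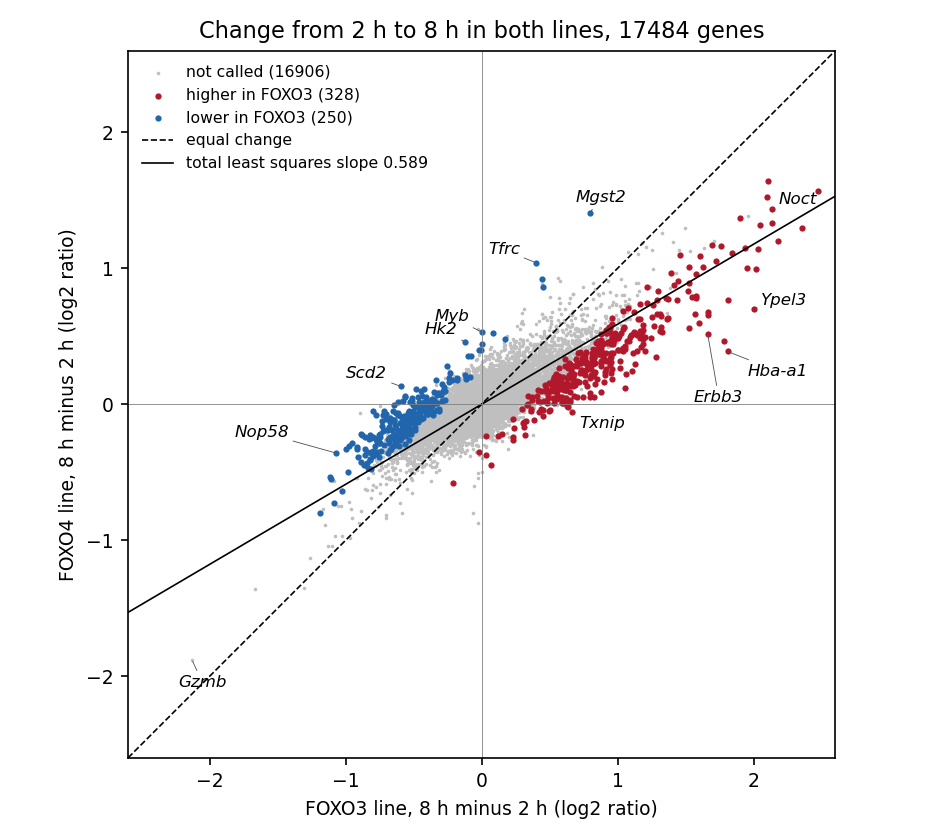
Change from 2 h to 8 h of each of 17484 genes in the FOXO3 line (x axis) and the FOXO4 line (y axis), in log2 units, as fitted over 4 arrays per group. Red and blue points are the 328 and 250 genes called higher or lower in FOXO3, grey points were not called, the dashed line marks equal change and the solid line the slope of 0.589. Most called points lie where the FOXO3 change is further from 0 than the FOXO4 change, and Tfrc, Mgst2, Hk2 and Myb lie where it is not.

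The scatter plot of both changes shows the called genes as 2 bands on either side of the origin, with a few genes, such as Mgst2 and Tfrc, where the FOXO4 change was the larger. The genes that stand out within the bands are described next, first those higher in FOXO3 and then those lower.

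The alpha-globin genes had the largest interaction. Hba-a1, which encodes alpha-globin, stood at 0.038, -0.23, 0.041 and -0.063 on the 4 FOXO3 arrays at 2 h and at 1.91, 1.72, 1.60 and 1.79 at 8 h, with the dye term taken off. In FOXO4 cells its ratios were -0.12, 0.018, -0.083 and -0.020 at 2 h and 0.43, 0.31, 0.16 and 0.45 at 8 h. The 8 arrays at 2 h overlapped, and all 4 FOXO3 arrays at 8 h lay above all 4 FOXO4 arrays. Its rise was 3.50-fold in FOXO3 cells and 1.31-fold in FOXO4 cells, an interaction of 1.42 ± 0.114 (limma adjusted p = 1.54e-06). The near-identical Hba-a2 gave 1.31 ± 0.113, and since probes of copies so alike can bind each other's RNA, the 2 values count as 1 observation. Of the other erythroid markers tested, Alas2 and Slc4a1 were dim on all 16 arrays and neither was called.

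Ypel3, which encodes a small zinc-binding protein of the yippee-like family, came next. It rose by 1.96, 1.81, 2.15 and 2.11 in the 4 same-numbered differences of FOXO3 cells and by 0.77, 0.68, 0.60 and 0.76 in those of FOXO4 cells. A same-numbered difference is 1 array at 8 h minus the array at 2 h of the same line, number and dye orientation, so that the dye effect drops out. Ypel3 was the gene of smallest adjusted p (2.21e-07), with an interaction of 1.30 ± 0.0853, and the 2 sets of differences lay far apart. Ypel5 of the same family gave 1.05 ± 0.0980, with a 3.51-fold rise in FOXO3 cells and a 1.70-fold rise in FOXO4 cells.

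Erbb3, a receptor tyrosine kinase whose gene FOXO factors are known to raise when PI3K signalling is low, rose by 1.59, 1.86, 1.89 and 1.31 in FOXO3 cells and by 0.66, 0.37, 0.63 and 0.43 in FOXO4 cells (interaction 1.14 ± 0.119, limma adjusted p = 3.14e-05). Its 2 dimmer probes gave 0.43 and 0.18, the same direction at a smaller size. Trp53inp1, a stress gene of the p53 pathway whose protein binds the LC3 family, had the largest FOXO3 change of these 15 genes, 2.36, against 1.29 in FOXO4 cells (interaction 1.06 ± 0.189). Its probe was dim on all 8 arrays at 2 h, so that the rise started from a low signal. Ccpg1, a receptor for the autophagy of endoplasmic reticulum, gave 1.03 ± 0.112, while a second, dimmer probe gave 0.087.

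The other genes among the 15 highest likewise rose further in FOXO3 cells by 8 h. S100a13, which encodes a calcium-binding protein, gave 1.01 ± 0.0767, and Vwa5a, a gene with a von Willebrand factor A domain, gave 0.99 ± 0.0758. Dram2, named for its role in damage-regulated autophagy, gave 0.95 ± 0.122, with 0.93 and 0.67 on its 2 other probes. Castor2, of the family of cytosolic arginine sensors of mTORC1, rose by 1.06 in FOXO3 cells and stood at 0.12 in FOXO4 cells, where it was not called (interaction 0.94 ± 0.146). Tcp11l2 gave 0.97 ± 0.147, the mitochondrial methyltransferase gene Etfbkmt 0.96 ± 0.116 and Tmem50a 0.94 ± 0.0962. Dimmer probes gave 0.25 for Etfbkmt and 0.41 for Castor2. Of the 15, 14 rose in both lines, and in all 15 the 4 FOXO3 differences lay above the 4 FOXO4 differences, which was part of the rule that named them. Over all genes tested, the differences lay apart with FOXO3 above for 3.94% and with FOXO3 below for 3.98%.

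**Figure D2:**
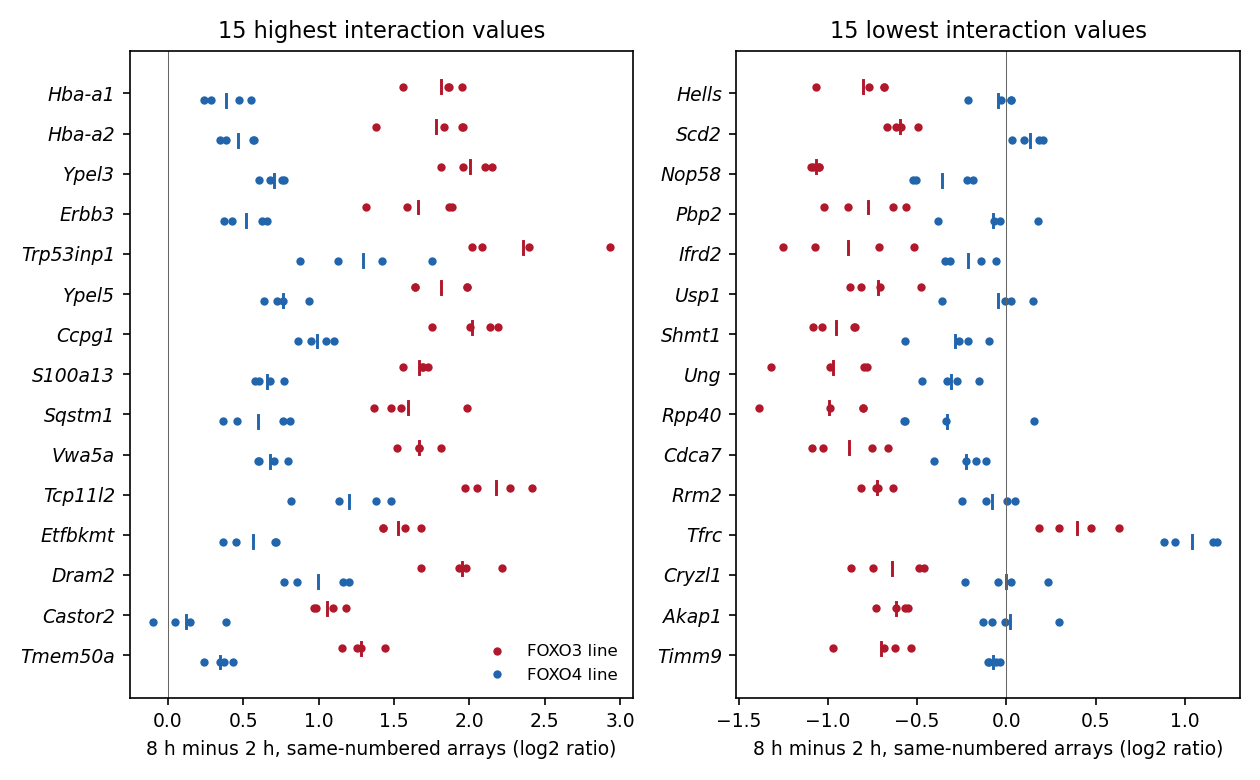
Same-numbered differences between 8 h and 2 h (log2 units, x axis) for the 15 highest and 15 lowest interactions, with 4 points per line (FOXO3 red, FOXO4 blue) and the mean as a vertical bar. The points of the 2 lines do not overlap for any gene shown, and Tfrc is the only gene of the right panel that rose in both lines.

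The plot of same-numbered differences shows that the separation of the lines was several times their spread for Ypel3 and S100a13, whose points lie close together, and narrower for Trp53inp1 and Rpp40, whose points scatter.

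Of the known FOXO-induced genes, 12 of 45 tested (26.7%, against 1.88% of all genes) were higher in FOXO3 and 0 lower. The median interaction was 0.23 against 0.0092 over all genes. The list was compiled from knowledge of the field with results of these arrays in view. Within the lines 25 of its members rose from 2 h to 8 h in FOXO3 cells and 18 in FOXO4 cells, with 0 falling in either, where 11.8% and 6.74% of all genes rose. The 12 were Erbb3, Txnip, Map1lc3b, Foxo3, Mxi1, Pik3ip1, Glul, Btg1, Gabarapl1, Igf1r, Bbc3 and Bcl2l11. Txnip, the inhibitor of thioredoxin and of glucose uptake, rose from 0.32, 0.42, 0.35 and 0.29 at 2 h to 0.96, 0.99, 1.08 and 1.03 at 8 h in FOXO3 cells. In FOXO4 cells it stood at 0.24, 0.0017, 0.10 and 0.18 and then at -0.0040, 0.13, 0.088 and 0.087, a change that was not called, and the interaction was 0.72 ± 0.0833 (limma adjusted p = 9.36e-05). Mxi1, a MAX partner that opposes MYC, rose by 0.73, 0.82, 0.95 and 1.14 in FOXO3 cells and gave 0.17, 0.25, 0.27 and 0.17 in FOXO4 cells (interaction 0.69 ± 0.102), and the related Mxd4 gave 0.68 ± 0.113.

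Growth control and feedback genes of this group followed. Btg1, an antiproliferative gene, rose by 0.93, 1.16, 1.52 and 1.09 in FOXO3 cells and by 0.67, 0.24, 0.55 and 0.22 in FOXO4 cells (interaction 0.76 ± 0.121). Pik3ip1, which encodes a membrane inhibitor of PI3K, gave 0.70 ± 0.106, and its probe was dim on all 8 FOXO4 arrays. Foxo3 itself rose by 0.65 in FOXO3 cells and stood at 0.014 in FOXO4 cells (interaction 0.64 ± 0.0891), but the probe was dim on 13 of 16 arrays, and whether it also reads RNA of the FOXO3 transgene was not tested. Foxo4 (0.026 ± 0.0852) and Foxo1 (-0.067 ± 0.0747) were not called, and were dim on 15 and 16 of 16 arrays. Igf1r, the receptor of insulin-like growth factor 1, gave 0.37 ± 0.0906 on its brightest probe, while its 5 other probes lay between -0.17 and 0.20.

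Of the 83 named genes called, 6 have the extended forkhead motif TTGTTTAC in a RefSeq promoter of GRCm38.p6, from 250 bases before the start to 50 after, on either strand. A promoter was at hand for 83 of all 99 named genes, called or not, so some called genes may not have been searched. TTGTTTAC holds the core TGTTTAC, so every match of the longer motif is also a match of the shorter. In 4 genes higher in FOXO3 and in Rrp1b, a gene lower in FOXO3, the match lies before the start. For the 4 higher genes, the 250 bases before the start are shown with the match in capitals, read along the strand of the gene. They are Btg1 (chr10:96616751-96617000, plus strand), Txnip (chr3:96557707-96557956, plus strand), Mxi1 (chr19:53329445-53329694, plus strand) and the death gene Bbc3 (chr7:16310011-16310260, plus strand).
Btg1: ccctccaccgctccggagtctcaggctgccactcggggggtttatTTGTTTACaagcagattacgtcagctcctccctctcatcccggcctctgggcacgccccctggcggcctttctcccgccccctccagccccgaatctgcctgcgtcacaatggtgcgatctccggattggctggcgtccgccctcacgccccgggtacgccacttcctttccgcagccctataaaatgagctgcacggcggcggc
Txnip: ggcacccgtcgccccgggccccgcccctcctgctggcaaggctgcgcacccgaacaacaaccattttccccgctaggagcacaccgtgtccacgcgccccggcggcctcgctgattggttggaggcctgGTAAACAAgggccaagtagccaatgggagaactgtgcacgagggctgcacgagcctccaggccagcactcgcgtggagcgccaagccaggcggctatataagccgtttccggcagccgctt
Mxi1: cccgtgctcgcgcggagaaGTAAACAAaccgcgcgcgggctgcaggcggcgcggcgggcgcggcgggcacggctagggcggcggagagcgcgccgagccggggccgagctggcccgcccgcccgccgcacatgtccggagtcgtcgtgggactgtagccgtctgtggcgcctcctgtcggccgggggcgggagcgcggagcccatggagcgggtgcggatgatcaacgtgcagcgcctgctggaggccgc
Bbc3: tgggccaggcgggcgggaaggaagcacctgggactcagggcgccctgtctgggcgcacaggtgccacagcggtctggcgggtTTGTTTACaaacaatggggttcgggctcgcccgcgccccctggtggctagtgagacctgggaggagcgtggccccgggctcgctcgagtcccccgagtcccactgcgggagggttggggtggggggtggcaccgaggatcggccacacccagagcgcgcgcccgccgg
In Txnip and Mxi1 the capitals read GTAAACAA, the same motif on the other strand. The matches shown begin 205, 121, 231 and 168 bases before the start. Ypel3 has its match after the start, and Rrp1b, a gene lower in FOXO3, has 1 at 198 bases before it. The motif TTGTTTAC stood in 2.17% of the 368 promoters of genes higher in FOXO3, in 1.21% of the 248 of genes lower in FOXO3 and in 0.888% of the 17333 of all genes tested. The core TGTTTAC stood in 6.52%, 2.42% and 2.92%, and TTGTTTTG, another FOXO-type site, in 3.53%, 1.21% and 1.83%. These shares count promoters, of which a gene can have several, so the count of named genes cannot be set against them. A match is a description of these letters and says nothing of binding.

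Autophagy genes were among those higher in FOXO3. Of 43 genes of the autophagy machinery and its receptors, 12 (27.9%, against 1.88% of all genes) were higher in FOXO3 and 0 lower. The median interaction was 0.19. From 2 h to 8 h, 22 members rose and 2 fell in FOXO3 cells, against 12 and 0 in FOXO4 cells. Of all genes, 11.8% rose in FOXO3 cells and 6.74% in FOXO4 cells. Among the receptors, Sqstm1, which encodes p62, stood at 0.37, 0.41, 0.10 and 0.25 in FOXO3 cells at 2 h and at 1.85, 1.78, 2.09 and 1.80 at 8 h. In FOXO4 cells it went from 0.20, 0.45, 0.18 and 0.38 to 0.96, 0.91, 0.99 and 0.75. The lines overlapped at 2 h and did not at 8 h, and the interaction was 1.00 ± 0.124 (limma adjusted p = 0.000197), a 3.02-fold against a 1.52-fold rise. Calcoco1, another receptor, gave 0.66 ± 0.141.

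The ATG8 family, the ubiquitin-like proteins that are joined to the autophagosome membrane, was represented by 4 of these 12 genes. Map1lc3b rose by 1.49, 1.73, 1.72 and 1.37 in FOXO3 cells and by 0.79, 0.78, 0.70 and 0.85 in FOXO4 cells, and its interaction was 0.80 ± 0.106 (limma adjusted p = 0.00034). Its other probes gave 0.93 and 0.69. Gabarapl2 gave 0.59 ± 0.0888, Gabarapl1 0.47 ± 0.0868 and Gabarap 0.36 ± 0.0893. Gabarapl1 rose in FOXO3 cells (0.58) and was not called in FOXO4 cells (0.11). The phagophore scaffold genes Wdr45 (0.73 ± 0.0830) and Wipi1 (0.64 ± 0.121), the lipid transfer gene Atg2a (0.59 ± 0.137), and Rb1cc1, Atg13 and Ulk2 of the initiating kinase complex (0.54 ± 0.105, 0.49 ± 0.115 and 0.40 ± 0.107) made up the rest. Wipi1, Atg2a, Rb1cc1, Atg13, Ulk2, Gabarap and Calcoco1 were named after their values were seen. Ulk1, the best known kinase of that complex, missed the threshold (0.34 ± 0.0998, limma adjusted p = 0.0745), and so did the mitophagy receptor Bnip3, whose value pointed the other way (-0.39 ± 0.171, limma adjusted p = 0.344).

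Of 36 genes of the lysosome and its proton pump, 3 (8.33%, against 1.88% of all genes) were higher in FOXO3 and 0 lower. All 3 were subunits of the pump: Atp6v1d (0.63 ± 0.0953), Atp6v0d1 (0.55 ± 0.124) and Atp6v1e1 (0.48 ± 0.0686). The count was 5 without FOXO3 2 h replicate 4 or FOXO4 2 h replicate 2, and over all alternatives it ranged from 0 to 5. All 3 genes lost their call with median centring, with centring on the control spots and without the dye term. The list's median was 0.074, and it turned to -0.030 with arrays centred on the control spots, a setting that moved the median of all genes by -0.10. In FOXO3 cells 18 members rose and in FOXO4 cells 11 (against 11.8% and 6.74% of all genes), without a called difference for cathepsins or lysosomal hydrolases.

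Glutamine genes split by direction. Of 31 genes of glutamine and glutamate metabolism, 2 were higher in FOXO3 and 6 lower (25.8% in all, against 3.31% of all genes). The median was -0.086. The 8 calls became 4 without FOXO4 2 h replicate 1 or FOXO4 8 h replicate 3 and with the replicate block. They became 5 without FOXO3 2 h replicate 1 or 4, FOXO3 8 h replicate 1, 2 or 4, or FOXO4 8 h replicate 1 or 2. Glul, which encodes glutamine synthetase, stood at 0.10, 0.084, 0.30 and 0.30 at 2 h and 1.33, 1.26, 1.13 and 1.22 at 8 h in FOXO3 cells, and at -0.041, -0.15, 0.068 and 0.087 and 0.36, 0.46, 0.36 and 0.35 in FOXO4 cells. All 4 FOXO3 arrays at 8 h were above all 4 FOXO4 arrays, while the groups at 2 h overlapped. The rise was 2.06-fold and 1.31-fold, and the interaction was 0.65 ± 0.0996 (limma adjusted p = 0.00118), with 0.29 on a dimmer probe. The second gene higher in FOXO3 was Ctps2 (0.47 ± 0.0936), a CTP synthase. The 6 lower ones use glutamine or glutamate in synthesis or belong to glutathione metabolism: Ppat (-0.53 ± 0.139) and Gmps (-0.27 ± 0.0659) of purine synthesis, the other CTP synthase Ctps (-0.48 ± 0.115), the tRNA synthetase Eprs (-0.34 ± 0.0744), Gclc (-0.33 ± 0.0836) and Ggct (-0.34 ± 0.0826). The glutamine transporter gene Slc1a5 (-0.32 ± 0.113, limma adjusted p = 0.181) and the asparagine synthetase gene Asns (-0.28 ± 0.107, limma adjusted p = 0.24) were not called, and limma called 0 of 21 amino acid transporters (7 at an unadjusted p under 0.05).

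Among 28 genes of the BCL2 family and apoptosis, 4 were higher in FOXO3 and 1 lower (17.9% in all, against 3.31% of all genes). The 5 calls became 2 without FOXO3 8 h replicate 3, FOXO4 2 h replicate 4 or FOXO4 8 h replicate 3 or 4, and 3 without FOXO3 2 h replicate 3 or with the replicate block. Of 5 markers of cell death or stress of the culture, limma called 0 for the interaction (1 at an unadjusted p under 0.05), with a median of 0.18, while 3 (Ddit3, Hmox1 and Fos) rose from 2 h to 8 h in FOXO3 cells and 0 in FOXO4 cells. All but Hmox1 were dim on at least 14 of 16 arrays. Their part in these results was not tested. Bbc3, the gene of the BH3-only protein PUMA, had fallen at 2 h in both lines, to -0.41 in FOXO3 cells and -0.44 in FOXO4 cells. At 8 h it stood at 0.48 in FOXO3 cells and back near its start in FOXO4 cells, at 0.00063 (interaction 0.45 ± 0.111, limma adjusted p = 0.0304). Bcl2l11, the gene of BIM and a known FOXO target, rose by 0.83, 0.64, 1.01 and 0.63 in FOXO3 cells and by 0.58, 0.23, 0.34 and 0.083 in FOXO4 cells. The interaction, 0.47 ± 0.124, lay near the threshold (limma adjusted p = 0.0451) and lost its call under 16 of 27 alternatives. The pro-survival gene Mcl1 (0.45 ± 0.0904) and the caspase gene Casp6 (0.51 ± 0.116) were also higher in FOXO3, and Bid, which links death receptors to mitochondria, was lower (-0.34 ± 0.0808). A second, dimmer probe of Mcl1 gave 0.23, and Mcl1 lost its call with the mean of the gene's probes. The survival gene Bcl2 fell in both lines (-0.97 and -0.72) without a called difference (limma adjusted p = 0.272).

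Of 38 interleukin-3 and STAT5 response genes, 4 were higher in FOXO3 (10.5%, against 1.88% of all genes) and 0 lower: Egr2 (0.53 ± 0.0942), Mcl1, Socs2 (0.59 ± 0.126) and Stat5b (0.42 ± 0.104). A dimmer probe of Socs2 gave 0.034. Myc rose in both lines after its early fall, by 0.61 and 0.70, and Ccnd2, the gene of cyclin D2, fell in both, by 0.66 and 0.43, neither with a called interaction (limma adjusted p = 0.858 and 0.5). Noct, the gene of nocturnin, which removes a phosphate from NADP(H), had risen in both lines at 2 h (1.46 and 1.43). It rose on to 3.60 in FOXO3 cells and 2.87 in FOXO4 cells (interaction 0.70 ± 0.139), the highest ratios of any gene named here, while its dimmer probe gave -0.028.

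Among the genes lower in FOXO3, Hells, a chromatin remodeller needed for DNA methylation, stood at -0.85, -0.68, -0.91 and -0.77 in FOXO3 cells at 8 h, from -0.17, 0.0062, 0.15 and 0.0060 at 2 h. In FOXO4 cells it was at -0.11, -0.33, -0.11 and -0.22 at 2 h and -0.32, -0.30, -0.14 and -0.19 at 8 h, a change that was not called. The interaction was -0.76 ± 0.107 (limma adjusted p = 0.000616), the lowest among called genes with differences that did not overlap. Cdca7, whose protein is known to work with that of Hells, gave -0.65 ± 0.0951. Usp1, a deubiquitinase of replication and repair proteins, gave -0.67 ± 0.141, and Ung, the uracil-DNA glycosylase gene, -0.66 ± 0.113.

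Of 47 S phase and DNA replication genes, 0 were higher in FOXO3 and 13 lower (27.7%, against 1.43% of all genes). The median was -0.25. The 13 calls became 8 without FOXO3 8 h replicate 3, FOXO4 2 h replicate 1 or FOXO4 8 h replicate 3. In FOXO3 cells 37 of the 47 fell from 2 h to 8 h, and in FOXO4 cells 20 fell, with 0 rising in either, where 9.99% and 3.95% of all genes fell. Rrm2, the small subunit of ribonucleotide reductase, was at -0.35, -0.24, -0.32 and -0.32 in FOXO3 cells at 2 h and at -0.39, -0.40, -0.18 and -0.16 in FOXO4 cells, a range in which the lines overlapped. At 8 h it was at -0.98, -1.05, -1.05 and -1.04 in FOXO3 cells and -0.39, -0.35, -0.30 and -0.40 in FOXO4 cells, and the lines were far apart. The fold change was 0.605 in FOXO3 cells and 0.948 in FOXO4 cells (interaction -0.65 ± 0.0861, limma adjusted p = 0.00034). Uhrf1, which guides maintenance DNA methylation, gave -0.58 ± 0.0840, the polymerase delta subunit gene Pold2 -0.59 ± 0.118, and the licensing factor gene Cdt1 -0.48 ± 0.0779. The others were Dut, Pcna, Ccne1, Orc2, Mcm10, Ccne2, Mcm4, Tk1 and Cdc6. Of 44 genes of mitosis, 1 was higher (Nusap1, 0.52 ± 0.0993) and 1 lower (Ccna2, -0.40 ± 0.0832).

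Genes of ribosome biogenesis were lower in FOXO3 as well. Of 45 genes of ribosome biogenesis, 0 were higher in FOXO3 and 13 lower (28.9%, against 1.43% of all genes). The median was -0.33, the lowest of the 28 lists. The 13 calls became 7 without FOXO3 8 h replicate 3 or FOXO4 8 h replicate 2, 3 or 4. In FOXO3 cells 35 fell and in FOXO4 cells 11 fell, where 9.99% and 3.95% of all genes fell. Nop58, a core protein of box C/D ribonucleoprotein particles that guide the methylation of ribosomal RNA, fell by 1.05, 1.08, 1.09 and 1.05 in the 4 FOXO3 differences and by 0.50, 0.19, 0.52 and 0.22 in the 4 FOXO4 differences. The FOXO3 differences lay within a narrow range, and the interaction was -0.71 ± 0.0970 (limma adjusted p = 0.000428). Dkc1, the pseudouridine synthase of box H/ACA particles, gave -0.54 ± 0.0931, Rrp1b -0.51 ± 0.0980 and the helicase gene Ddx56 -0.43 ± 0.0849. Of 50 cytosolic ribosomal protein genes, limma called 0 (3 at an unadjusted p under 0.05), and the median was 0.022. Rpp40 of RNase P, outside the list, gave -0.66 ± 0.163, with -0.65 on a second probe.

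Scd2, a stearoyl-CoA desaturase, overlapped between the lines at 2 h, at -0.39, -0.38, -0.26 and -0.32 in FOXO3 cells and -0.38, -0.37, -0.29 and -0.46 in FOXO4 cells. By 8 h it had fallen in FOXO3 cells to -0.98, -0.88, -0.93 and -0.94, while in FOXO4 cells it stood at -0.28, -0.18, -0.26 and -0.25. The interaction was -0.73 ± 0.0757 (limma adjusted p = 3.14e-05). Insig1, which holds back sterol synthesis, gave -0.45 ± 0.0882 and Acaca, the acetyl-CoA carboxylase, -0.37 ± 0.0844. With Scd2 they were the called members of a list of 25 lipid synthesis genes, covering cholesterol and fatty acids. Of these 25, 0 were higher in FOXO3 and 3 lower (12.0%, against 1.43% of all genes). The list's median was -0.18, against 0.0092 over all genes. Its count of 3 ranged from 1 to 4 over all alternatives, and from 3 to 4 with an array left out. The 10 other Acaca probes, all dimmer, lay between -0.22 and -0.023. Shmt1, of the folate-linked serine pathway, gave -0.67 ± 0.0967. Akap1, which anchors protein kinase A at mitochondria, gave -0.64 ± 0.0978, Timm9, a chaperone of mitochondrial import, -0.63 ± 0.111, and Cryzl1 -0.64 ± 0.107. A second probe of Timm9 gave -0.21. Pbp2 (-0.70 ± 0.140) and Ifrd2 (-0.67 ± 0.157) completed the 15 together with Tfrc.

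The remaining lists held at most 4 calls each, in shares from 0% to 23.5%, against 3.31% of all genes. The highest share was that of globin, haem and iron genes (4 of 17, 23.5%). Hba-a1 and Hba-a2, which count as 1 observation, were among these 4. Next came the MYC and MAX network (2 of 12, 16.7%) and antioxidant genes (3 of 23, 13.0%). The count was 1 of 32 tRNA synthetases and ATF4 targets (3.1%), 2 of 24 p53 targets (8.3%) and 2 of 30 heat shock and unfolded protein response genes (6.7%). It was 2 of 23 of glycolysis (8.7%), 2 of 54 of the respiratory chain (3.7%) and 1 of 38 proteasome subunits (2.6%). Limma called 2 of 28 haematopoietic transcription factors (7.1%), 1 of 21 Id, Btg and Gadd45 genes (4.8%) and 2 of 35 PI3K and mTOR regulators (5.7%). It also called 1 of 16 tubulins (6.2%), 1 of 18 clock genes (5.6%) and 0 of 16 KLF factors and Cited2 (2 at an unadjusted p under 0.05). Of the 7 known FOXO-repressed genes, limma called 0 (1 at an unadjusted p under 0.05). The antioxidant count was 1 with any of these arrays left out: FOXO3 2 h replicate 1, FOXO3 8 h replicate 1, 2 or 4, FOXO4 2 h replicate 1 or 2, and FOXO4 8 h replicate 1, 2 or 3. Among single members, the chaperone gene Hsp90aa1 was lower in FOXO3 (-0.51 ± 0.0788) and Herpud1, of endoplasmic reticulum degradation, higher (0.36 ± 0.0803), the latter after a lower value in FOXO3 cells at 2 h. Urod, of haem synthesis, was higher (0.48 ± 0.0876), and Cbfa2t3, a transcriptional corepressor of blood cells, lower (-0.46 ± 0.102). Tuba4a, a tubulin gene, fell in both lines and further in FOXO3 cells (-0.39 ± 0.0783). Other called members were the nuclease gene Aen (-0.42 ± 0.0831, with -0.070 on a second probe), the glutathione reductase gene Gsr (-0.30 ± 0.0792), the glycolytic gene Pgam1 (-0.41 ± 0.109), the proteasome gene Psmd4 (0.44 ± 0.103, with 0.20 on a second probe) and the respiratory chain genes Ndufs4 (0.34 ± 0.0802) and Uqcrh (0.28 ± 0.0704).

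**Figure D3:**
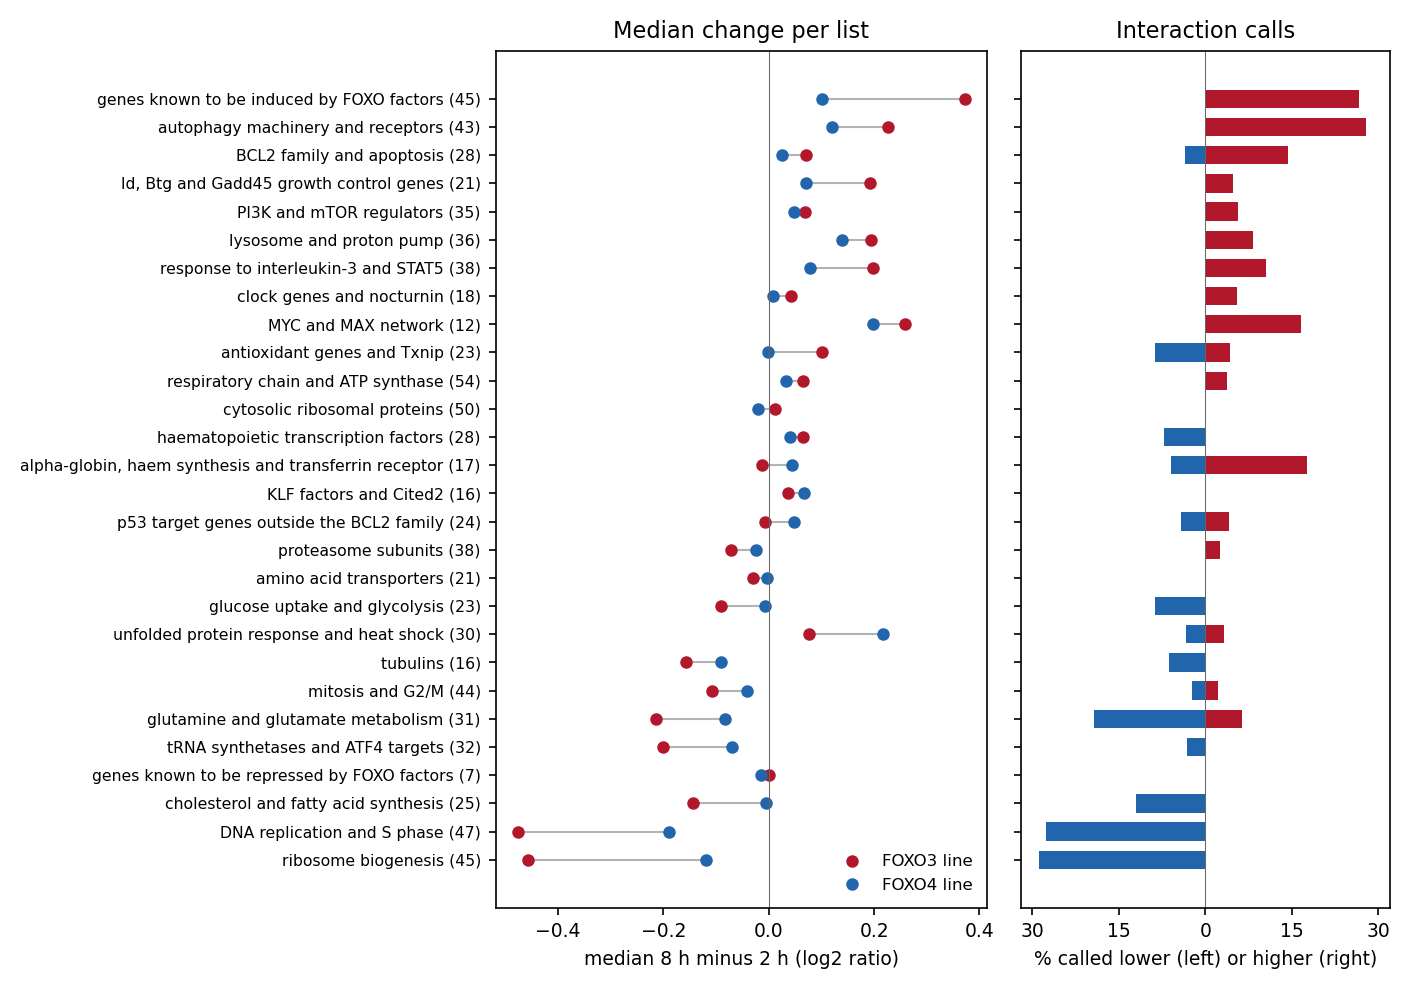
The 28 gene lists, ordered by median interaction, with the number of genes tested in brackets. Left, the median change from 2 h to 8 h (log2 units) in the FOXO3 line (red) and the FOXO4 line (blue). Right, the percentage of a list's genes called higher (red, right of 0) or lower (blue, left of 0) in FOXO3. Ribosome biogenesis and DNA replication stand lowest, at -0.33 and -0.25, and FOXO-induced and autophagy genes highest, at 0.23 and 0.19.

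The plot of the lists places the FOXO3 median further from 0 than the FOXO4 median at both ends of the order. Lists share members, for example Map1lc3b, Gabarapl1 and Bnip3 between the autophagy and the FOXO-induced list, so their counts are not independent.

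A smaller set ran against the main direction, with the larger change in FOXO4 cells. Genes of this set outside the naming rule were picked after their values were seen. There were 27 such genes among the 578, and for 18 of them FOXO4 cells alone passed the threshold from 2 h to 8 h. Mgst2, a microsomal glutathione transferase, rose by 0.94, 0.88, 0.64 and 0.71 in FOXO3 cells and by 1.64, 1.38, 1.44 and 1.16 in FOXO4 cells. That is 1.73-fold and 2.65-fold, an interaction of -0.61 ± 0.0973 (limma adjusted p = 0.00149), and the differences of the lines did not overlap. Tfrc, the transferrin receptor through which cells take up iron, was lower in FOXO4 cells at 2 h (-0.71, -0.69, -0.52 and -0.54) than in FOXO3 cells (-0.29, -0.24, -0.076 and -0.081). That difference at 2 h was called. By 8 h the order of the means had turned, with FOXO4 cells at 0.45, 0.49, 0.42 and 0.35 and FOXO3 cells at 0.35, 0.23, 0.11 and 0.21, and the interaction was -0.65 ± 0.0972 (limma adjusted p = 0.000967). Cnpy4 (-0.48 ± 0.0961) and Add3, an adducin of the membrane skeleton (-0.42 ± 0.106), also rose further in FOXO4 cells.

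After an early fall in both lines, Hk2 and Myb rose again in FOXO4 cells and not in FOXO3 cells. Hk2 came back near its start, and Myb only to the level of FOXO3 cells. Hk2, the hexokinase of the first step of glycolysis, stood at -0.74, -0.82, -0.83 and -0.98 in FOXO3 cells at 2 h and at -0.99, -0.97, -1.02 and -0.86 at 8 h. In FOXO4 cells it went from -0.59, -0.59, -0.44 and -0.47 to -0.12, -0.10, -0.048 and 0.013, so that at 8 h the 4 arrays lay near their time 0 pool (interaction -0.58 ± 0.0886, limma adjusted p = 0.00115). Myb, a transcription factor of immature blood cells, stood at -1.36 in FOXO4 cells at 2 h and rose again to -0.83. In FOXO3 cells Myb was at -0.88 and then -0.88 (interaction -0.53 ± 0.122). The difference of the lines at 8 h was not called (-0.051, limma adjusted p = 0.881). Myb thus remained below time 0 in both lines. Its other 2 probes gave -0.13 and -0.33. Insig1 and Ero1a likewise rose in FOXO4 cells and were not called in FOXO3 cells.

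The reverse course, an early rise that was kept in FOXO3 cells and partly lost in FOXO4 cells, was shown by Rnf19b and Zranb1, 2 genes of the ubiquitin system, and by Wtap, a subunit of the RNA m6A methyltransferase. Rnf19b was at 1.21, 1.30, 0.99 and 1.36 in FOXO3 cells at 2 h and 1.15, 1.38, 1.37 and 1.24 at 8 h, and at 1.44, 1.37, 1.42 and 1.33 and 1.01, 0.83, 1.09 and 0.86 in FOXO4 cells. The FOXO4 arrays at 8 h lay below the FOXO4 arrays at 2 h, and the FOXO3 arrays of both times overlapped (interaction 0.52 ± 0.113, limma adjusted p = 0.0153). Zranb1 gave 0.41 ± 0.0946. Wtap rose by 0.25, 0.22, 0.31 and 0.15 in FOXO3 cells and gave -0.11, -0.21, -0.34 and -0.30 in FOXO4 cells, with no overlap (interaction 0.47 ± 0.0792), and the zinc transporter gene Slc39a10 moved the opposite way, -0.24 in FOXO3 cells and 0.19 in FOXO4 cells. Nfkbia, the inhibitor of NF-kappaB, gave 0.50 ± 0.118.

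To set such genes in context, the 868 genes that were called against time 0 at 2 h in both lines, the same way, were sorted by what followed. This sorting was chosen after the values were seen, and its first step holds the error of the time 0 pools. The interaction was called for 146 of the 868 (16.8%), against 3.31% of all genes tested. Among the 4209 genes called in the mean of both lines the share was 13.0%. The 2 h arrays that picked the 868 also enter the interaction. In 102 of the 146 both lines went on in the early direction, further in FOXO3 cells (71 high and 31 low at 2 h), and in 0 did both go on further in FOXO4 cells. In 27 FOXO3 cells went on and FOXO4 cells turned back (7 high and 20 low at 2 h), Hk2, Scd2, Rnf19b and Wtap among them. In 12 both lines turned back, further in FOXO3 cells, among them Bbc3, Anxa5, Tsc22d1 and Dkc1, and in 4 further in FOXO4 cells, Tfrc and Myb among them. In 1, Prkd2, FOXO3 cells turned back and FOXO4 cells went on. The direction of a line is the sign of its fitted change, whether called or not.

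**Figure D4:**
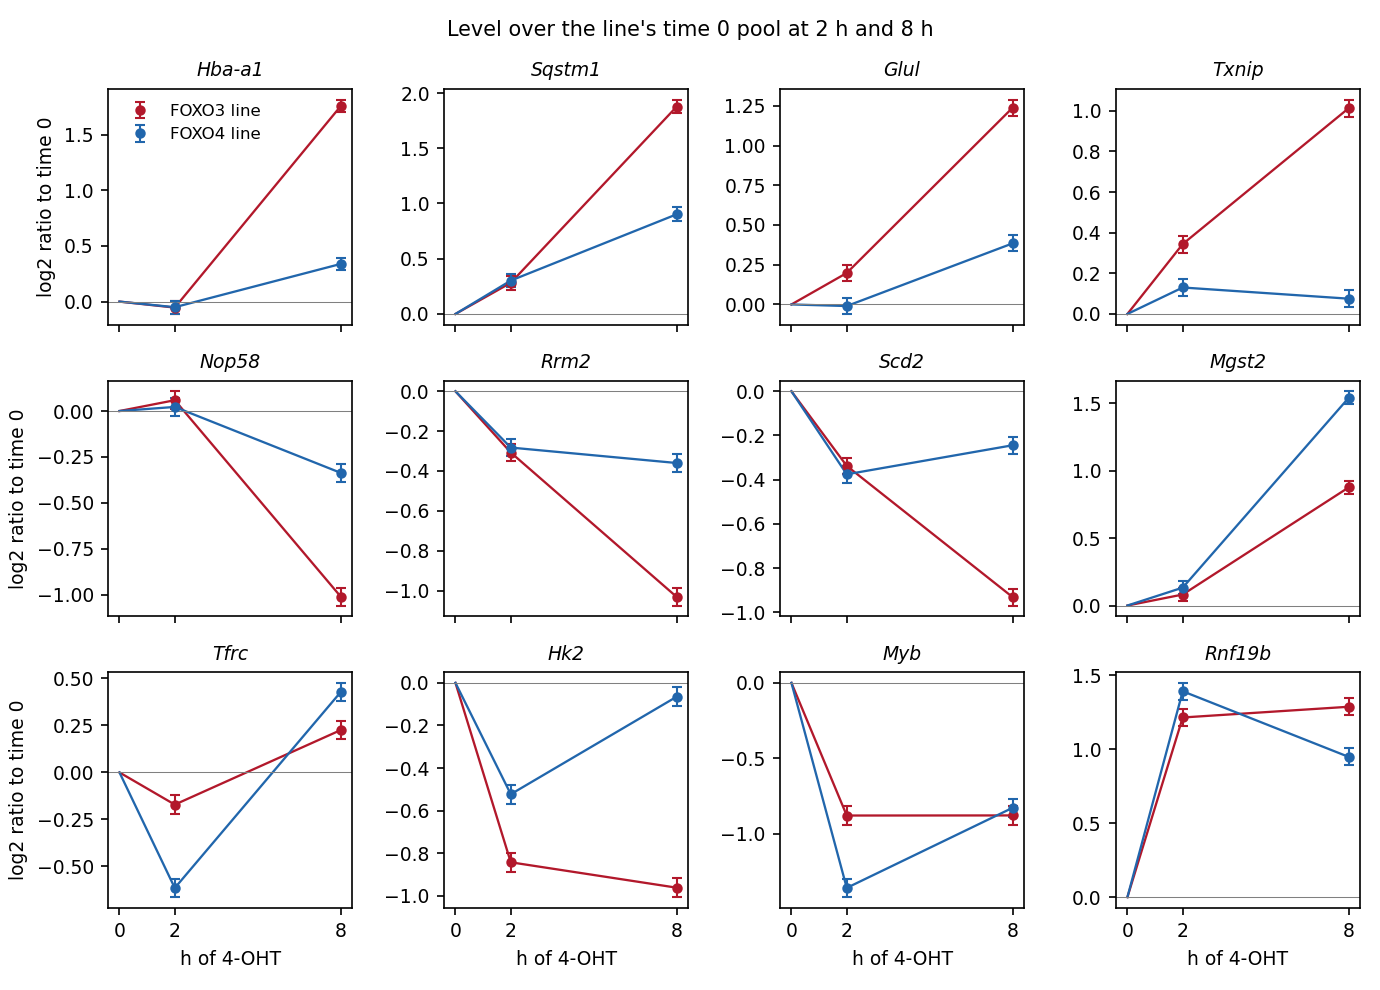
Mean log2 ratio to the line's time 0 pool at 2 h and 8 h of 4-OHT for 12 genes, with bars for the SE of the fit (n = 4 arrays per group); time 0 is 0 by definition, and y axes differ. For the upper genes the lines lie further apart at 8 h than at 2 h, with FOXO3 cells (red) further from 0. Hba-a1 stands at 1.76 against 0.34, and Glul and Txnip lie apart at 2 h already. Mgst2, Tfrc, Hk2 and Myb changed more in FOXO4 cells (blue).

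The plot of time courses shows error bars that meet or nearly meet at 2 h for Hba-a1, Sqstm1, Nop58, Rrm2 and Scd2. The 2 h means lie apart for Glul, Txnip, Rnf19b, Tfrc, Hk2 and Myb, of which only Tfrc was called at 2 h.

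A second contrast asked which genes left the common slope, that is, for which the FOXO4 change was not 0.592 times the FOXO3 change. It was chosen after the values were seen. It called 65 genes (0.372%), 38 above the slope and 27 below. Of the 578 interaction genes, 44 were among the 65 and 534 were not. The slope came from these same data and was taken as fixed, and a gene that missed the threshold need not lie on it. At an unadjusted limma p under 0.05 the contrast held 1227 genes. Mgst2 had the largest departure, 0.94 ± 0.0800, followed in order of adjusted p by Tfrc (0.81 ± 0.0799), Cnpy4 (0.66 ± 0.0790) and Scd2 (0.48 ± 0.0622), all with a FOXO4 value above the one the slope gives. Hba-a1 (-0.68 ± 0.0939), Ypel3 (-0.48 ± 0.0701) and Txnip (-0.45 ± 0.0685) lay below it, with a FOXO4 value under the one the slope gives. Gzmb, the granzyme B gene, fell by 2.13 in FOXO3 cells and 1.88 in FOXO4 cells, and lay off the slope (-0.61 ± 0.104) without a called interaction (limma adjusted p = 0.439). Id1, whose protein holds back helix-loop-helix factors, did likewise (0.60 ± 0.0897).

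Some known FOXO targets could not be told apart between the lines at this precision. Gadd45a, a stress gene, rose by 1.33, 1.70, 1.68 and 0.74 in FOXO3 cells and by 0.85, 0.83, 0.44 and 0.57 in FOXO4 cells, with overlap, and its interaction of 0.69 ± 0.198 missed the threshold (limma adjusted p = 0.0666). Cited2 (0.43 ± 0.184), Sesn1 (0.39 ± 0.137), Klf6 (0.38 ± 0.167) and Cdkn1b, the gene of p27 (0.27 ± 0.113), were not called either (limma adjusted p = 0.31, 0.172, 0.335 and 0.289). Cited2, Sesn1 and Klf6 had already risen at 2 h in both lines, Cited2 to 1.47 and 1.44, and rose again by 8 h. A p that misses the threshold does not show that the lines were alike. In simulated data the fit found 10 of 50 genes with an interaction of 0.3 and 46 of 50 with one of 0.6. Those rates need not hold for Gadd45a, Cited2, Sesn1, Klf6 and Cdkn1b, whose SEs lie above the median SE of 0.100.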

How the data were processed

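RNA of treated cells and of the line's time 0 pool was hybridised in Cy3 and Cy5 on 16 arrays, with dyes swapped within each group. The authors deposited scanner spot intensities and local backgrounds, per the file headers, together with normalized intensities and a table of log2 values. Each deposited log2 value equalled the log2 of treated over time 0 of the deposited normalized intensities within 5e-06. For the image software and the authors' normalization, the methods are not given in the sources used. The log2 table has no stated direction, and its column medians lay between -0.012 and 0.011.

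From the deposited intensities, background was corrected by normexp (offset 50) and each array normalized by loess with 3223 control spots at weight 0, in R 4.3.3 with limma 3.58.1. Gene probes had to exceed local background by 2 of its SDs, in 1 channel or the other, on 4 or more arrays, and 942 were left out. Of 31769 gene probes, 26000 had 1 symbol, 0 several and 5769 none. Of 17888 symbols, 15860 were current in GRCm38.p6, 1981 were replaced by way of a synonym and 47 kept. Each gene took its brightest probe, and 4662 had more than 1. The model held a mean for each of the 4 groups and a dye term for each gene, with 11 residual degrees of freedom and Benjamini-Hochberg adjustment over 17484 genes. p-values measure the spread between these samples. Precision is limited by the number of arrays.

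The comparison, the gene lists and the naming rule were set with earlier results of these data known. Named were the 15 highest and 15 lowest called genes whose same-numbered differences did not overlap between lines, up to 4 called members of smallest adjusted p per list, 26 fixed genes, and up to 10 called genes with opposite changes, of which only 2 exist. Clone and predicted names were left out, and other genes were named after their values were seen. Alternatives covered normalization, background, scale, dye term, replicate block, probe filter, probe choice, array weights and each array left out. In simulated data for the interaction over 17484 genes, the fit found 10 of 50 genes changed by 0.3, 46 of 50 changed by 0.6 and 50 of 50 changed by 1, and called 12 of 17284 unchanged genes. Figures were drawn with matplotlib 3.10.9.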

Additional observations from a re-analysis of the deposited data

Results flagged for a closer look

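The change from 2 h to 8 h differed between the lines for 578 genes by the test of the difference itself, as described above. In 26 of the 396 groups of 4 arrays checked for a named gene (6.57%, where chance gives about 1 in 20), 1 array stood apart from the other 3, with the dye term taken off. None of these values is explained here.

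Among genes higher in FOXO3, the array that stood apart was FOXO3 8 h replicate 2 for Hba-a2 (1.55), replicate 3 for Trp53inp1 (3.09), replicate 4 for Pik3ip1 (1.12) and replicate 1 for Foxo3 (0.48). It was FOXO4 8 h replicate 1 for Ccpg1 (1.38) and Dram2 (1.19), replicate 2 for Glul (0.46) and replicate 3 for Psmd4 (0.090). At 2 h it was FOXO4 replicate 1 for Ypel5 (0.020), and among FOXO3 arrays replicate 4 for Atp6v1d (0.23) and Bbc3 (-0.61) and replicate 3 for Casp6 (-0.20).

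Among genes lower in FOXO3, it was FOXO3 8 h replicate 1 for Ccna2 (-0.63), Rrp1b (-0.74) and Rrm2 (-0.98), and replicate 4 for Nop58 (-0.93). It was FOXO4 8 h replicate 4 for Bid (-0.33) and replicate 1 for Myb (-0.95). At 2 h it was FOXO3 replicate 2 for Gsr (0.23), FOXO4 replicate 1 for Shmt1 (-0.0062) and FOXO4 replicate 4 for Ifrd2 (-0.32), while Usp1 had 1 in each line, FOXO3 replicate 4 (0.18) and FOXO4 replicate 3 (0.33). Of the genes not called, Cdkn1b (0.69) and Myc (-0.026) had FOXO3 8 h replicate 3 apart, and Foxo1 (-0.046) had FOXO3 2 h replicate 1.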

How the results depend on the processing

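The interaction count of 578 stayed within 1.5 times with no background correction (547), with the authors' deposited log2 values (722), with no filter (563), with a filter at the control spots (728), with the mean of a gene's probes (612), with array weights (655) and with each array left out (389 to 609; 236 to 335 higher and 153 to 296 lower in FOXO3, the 153 without FOXO4 8 h replicate 3). It fell to 178 with median centring in place of loess (86 higher, 92 lower, 171 shared with the 578). With centring on the control spots it fell to 29 (16 and 13, all 29 shared). It was 221 with scaling between arrays (130 and 91, 217 shared) and 69 without the dye term (49 and 20, all 69 shared). The dye term had an SD of 0.423 over genes. Dyes were balanced within each group, so leaving the term out changed the SE of an interaction and not its value. The median interaction over all genes stayed at 0.0092. The causes of the other falls were not tested. Centring on the control spots and leaving out the dye term also lowered the genes called in FOXO3 cells to 2233 and 2037, in FOXO4 cells to 840 and 601 and in the mean of both lines to 2608 and 2332. The share with the larger change in FOXO3 cells was then 100% and 97.1%, and 93.6% to 97.4% with an array left out. Of the 83 named calls, 36 were lost with median centring, 59 on the control spots, 31 with scaling, 53 without the dye term and 3 to 15 with an array left out. The lists' called members ranged over the alternatives from 1 to 13 for autophagy, 1 to 14 for FOXO-induced genes, 0 to 9 for glutamine metabolism, 1 to 19 for ribosome biogenesis, 2 to 14 for DNA replication and 0 to 6 for the BCL2 family.

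The interaction of Foxo4, never called, turned to -0.085 with median centring, -0.078 on the control spots, -0.0037 with the authors' log2 values, -0.0087 with array weights, -0.034 without FOXO4 2 h replicate 2 and -0.0015 without FOXO4 8 h replicate 4 (-0.034 to 0.073 with an array left out), and that of Myc, also never called, to 0.016 with scaling. Same-numbered samples did not deviate together (correlations from -0.39 to 0.17, own number best in 2 of 8). No pairing beyond the dye orientation was seen, but with 4 arrays per group this check cannot exclude one. With the replicate block in place of the dye term 484 genes were called, 451 of them shared, with a slope of 0.592, and 9 named calls were lost. The files give no slide or scan batch, so that alternative was not run. An absolute interaction of at least 0.5, a limit added after seeing the data, held for 244 of the called genes.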

Other observations

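Some transcripts fell at first in both lines and then rose past their start, further in FOXO3 cells. Anxa5, which encodes annexin A5, a protein that binds phosphatidylserine, stood at -0.16 in FOXO3 cells and -0.20 in FOXO4 cells at 2 h and at 1.04 and 0.19 at 8 h, an interaction of 0.81 ± 0.0761 (limma adjusted p = 1.06e-05). Tsc22d1, a relative of the FOXO target Tsc22d3, went from -0.21 to 1.24 in FOXO3 cells and from -0.34 to 0.57 in FOXO4 cells (interaction 0.53 ± 0.0724). Ier5, an immediate early response gene, went from -0.46 to 0.47 and from -0.38 to 0.15 (interaction 0.40 ± 0.0815). These genes were picked after their values were seen.

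At 2 h the lines differed for 6 genes by limma. Ddit4, an inhibitor of mTORC1, was lower in FOXO3 cells by -0.65, the stress factor gene Atf4 by -0.41 and Herpud1 by -0.34, while Gata2 was higher by 0.59, Tfrc by 0.44 and Gfi1b by 0.36. The interaction was called for Herpud1 and Tfrc, in each case with the sign opposite to that of the 2 h difference, and for none of the other 4 (limma adjusted p from 0.0543 to 0.931). The 2 h difference holds the error of both time 0 pools and shares its 2 h arrays with the interaction, so the opposite signs are given as values only.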
